A study of Homo sapiens with 18 samples.

Results

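The genes PRKCSH, MLEC, PTTG1IP, ICMT, PLEKHB2, TM9SF3, ATRN, PTPRJ and NUCB1, which serve the secretory pathway and cell membranes, were followed through every group of the study. They are 9 of the 58395 genes in the deposited tables. They were chosen by their measured fall in PC3 cells after sCAG against sNT8, among the clearest falls there and with no stated threshold. Their PC3 values after sCAG therefore describe how they were selected, and the question put to the data was whether they also fell in HeyA8 cells. All 9 passed the filter on low values in every comparison.

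RNA was sequenced from PC3, a prostate cancer cell line, and from HeyA8, an ovarian cancer cell line, both labelled wild type. Cells were transfected with 10 nM of a short RNA, using the lipid reagent RNAiMax, and total RNA was taken after 48 h. There were 18 libraries, with replicates A, B and C in each of 6 groups: PC3 with sCAG, PC3 with sG5C, PC3 with sNT8, HeyA8 with sCAG, HeyA8 with sG5C and HeyA8 with sNT8. The authors' tables set sNT8 as the control of the other short RNAs. Every group carried a transfected short RNA, the sG5C libraries are titled Mxy and were placed by their treatment label, and nothing in the labels says that replicates were separate cultures, so p-values measure the spread between these libraries only.

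Library totals ran from 31232377 to 41384838 reads, with 31659 to 36188 genes detected, and replicate libraries were distinct from each other beyond counting error (chi-square over degrees of freedom, 3.29 to 7.26). Of the markers of each line's tissue, HeyA8 libraries held PAX8, at 348.7 to 405.9 CPM (a gene's reads scaled to the library total) after sCAG, 141.2 to 159.2 CPM after sG5C and 344.4 to 358.1 CPM after sNT8, but MUC16 stayed at or under 0.29 CPM. PC3 libraries held HOXB13, at 197.5 to 215.2 CPM after sCAG, 39.6 to 47.25 CPM after sG5C and 241.4 to 258.9 CPM after sNT8, while KLK3 was at 0 in all of them. The 4 leukocyte markers summed to 0.03 to 0.95 CPM in every library. The 3 endothelial markers summed to 16.48 to 17.49 CPM in HeyA8 sCAG libraries, against 71.66 to 76.19 CPM in HeyA8 sNT8 libraries, a difference carried by CDH5. The part of these differences in the results below was not tested.

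Proteins bound for the cell surface, the Golgi or the outside enter the endoplasmic reticulum (ER), most of them led by a signal peptide at their start whose hydrophobic core is often rich in leucine. In the ER, sugar chains added to asparagine are trimmed step by step, and lectins read the trimmed chains to judge folding. Short RNAs taken up by Argonaute proteins find transcripts by base pairing, and the short RNAs of this series come from work on DISE, death induced by survival gene elimination. The name sCAG spells a triplet whose reverse complement is CTG, which is also a codon for leucine. The sequence of the oligonucleotide was not used here, and no pairing was measured.

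The stretch shown for each gene is the part of an annotated coding transcript that holds its longest run of CTG units. Each of the 9 has a run of at least 4 units, in a search chosen with earlier results of these data known. Each is printed 5′ to 3′ on the transcript's strand, with the unbroken CTG repeat, partial units at its ends included, in capitals. Coordinates are hg38 and sequences those of the GENCODE 29 transcripts.
PRKCSH, chr19:11436121-11436150, plus strand: ctgttgccGCTGCTGCTGCTGCTacccatg
MLEC, chr12:120687339-120687368, plus strand: ctgcgaCTGCTGCTGCTGCTGCTGCcgccg
PTTG1IP, chr21:44856274-44856303, minus strand: tgccatCTGCTGCTGCTGCTGCTGCaggag
ICMT, chr1:6235732-6235761, minus strand: ctcaacgcGCTGCTGCTGCTGCTctatcgg
PLEKHB2, chr2:131147381-131147410, plus strand: tgaccctaGCTGCTGCTGCTGCTcacttta
TM9SF3, chr10:96586761-96586790, minus strand: ctgtgGCTGCTGCTGCTGCTGCTGCcccgg
ATRN, chr20:3471315-3471344, plus strand: ccgccGCTGCTGCTGCTGCTGCTGCcctgt
PTPRJ, chr11:47980973-47981002, plus strand: ctgccGCTGCTGCTGCTGCTGCTGCgcctg
NUCB1, chr19:48900830-48900859, plus strand: ctgttgccGCTGCTGCTGCTGCTcctgctt

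Runs of 6 full units stand in MLEC, PTTG1IP, TM9SF3, ATRN and PTPRJ, and runs of 4 units in PRKCSH, ICMT, PLEKHB2 and NUCB1. Of these 9 runs, 8 lie in coding sequence and 1, that of PLEKHB2, lies in the 3′ UTR, 617 bases after the last coding base. The coding runs of PRKCSH, NUCB1, MLEC, TM9SF3 and PTPRJ begin at codons 5, 15, 17, 18 and 23, within the first 50 codons, where a signal peptide would lie. Those of ICMT and ATRN begin at codons 54 and 72. In these 7 genes the frame reads CTG as leucine, whereas in PTTG1IP the run begins at codon 115 and is read in another frame, as TGC codons for cysteine. In PTPRJ, 11 of the 11 leucine codons among the first 50 codons are CTG, as are 9 of 14 in NUCB1, 9 of 11 in MLEC, 8 of 10 in TM9SF3 and 6 of 9 in PRKCSH.

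Measured against 18 bases of perfect CTG repeat in its best phase, the 6-unit genes matched at all 18 positions, PRKCSH and NUCB1 at 17, and ICMT and PLEKHB2 at 15. Among 14598 protein-coding genes measured in these libraries, 486, or 3.33%, have a run of at least 4 units on the sense strand of a coding transcript, and the 9 genes are among them. The cut at 4 units is the length of the shortest of the 9 runs, so all 9 pass it by construction. A run of at least 6 units is found in 0.63% of the measured genes and in 5 of the 9. A match of at least 15 of the 18 bases is less rare, found in 11.3% of the measured genes and in 9 of the 9. That cut, too, is the lowest value of the 9. A run of at least 4 units within the first 50 codons is found in 1.17% of the measured genes and in 5 of the 9, a split chosen after these sequences had been read. The 9 genes also have longer transcripts, with a median of 4771 bases for the longest coding transcript, against 3046 bases over the measured coding genes.

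**Figure D1:**
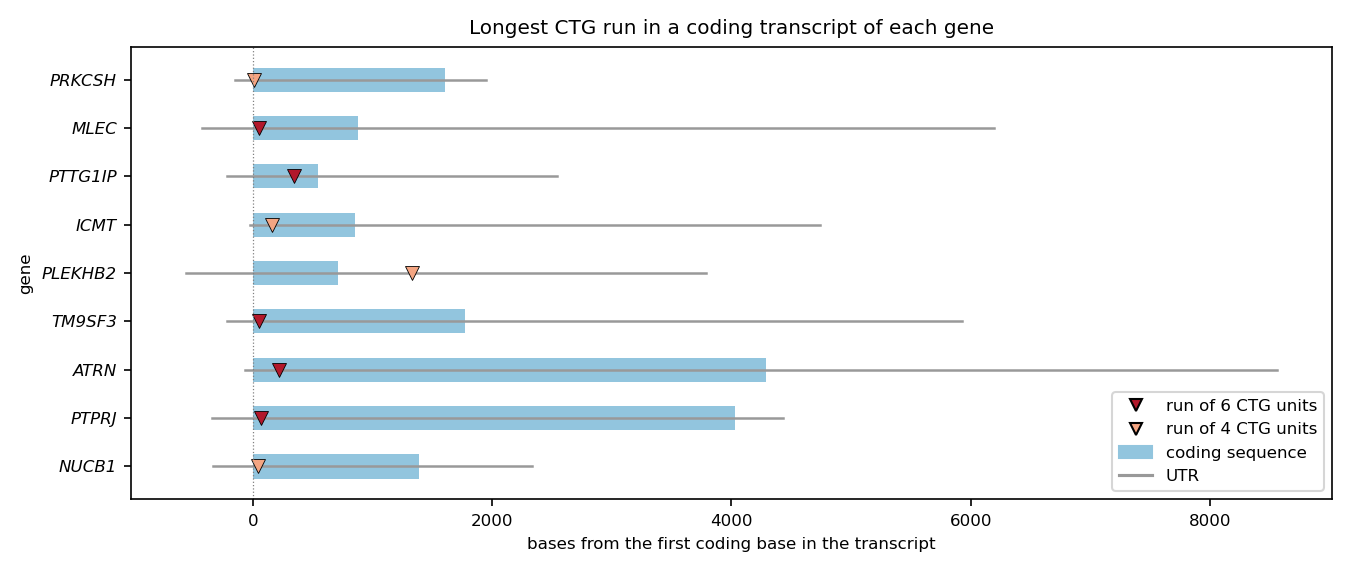
Position of the longest CTG run in 1 coding transcript of each gene, in bases from the first coding base, with coding sequence as a blue bar and UTRs as a grey line; dark triangles mark runs of 6 units and pale triangles runs of 4 units. The runs sit near the start of the coding sequence in most of the genes and in the 3′ UTR in PLEKHB2.

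Not every annotated transcript holds the run. It is in 9 of the 9 coding transcripts of PRKCSH, in 6 of 6 of PTPRJ and of NUCB1, in 8 of 9 of PLEKHB2, in 2 of 4 of MLEC and of PTTG1IP, and in 1 of 2 of TM9SF3. The tables count reads per gene, so transcripts with and without the run were not told apart.

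The HeyA8 libraries, which the choice of the genes did not use, showed the fall in all 9. Relative to sNT8, sCAG lowered each of the 9 at an adjusted p under 0.05, where 30% of the 21980 genes tested were called lower and 29.3% higher. The median log2 fold change of the 9 was -2.51, against 0.01 over all genes tested. By size, 8 of the 9 fell at least 2-fold, against 10.6% of genes, and 6 fell at least 4-fold, against 3.19%. Folds are from limma on log2 of the normalized value plus 1, with the Benjamini-Hochberg adjustment over all genes, and the per-library values given here are CPM, scaled to library totals. RNA came from whole cultures, so fewer cells of a kind and less RNA per cell cannot be told apart.

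**Figure D2:**
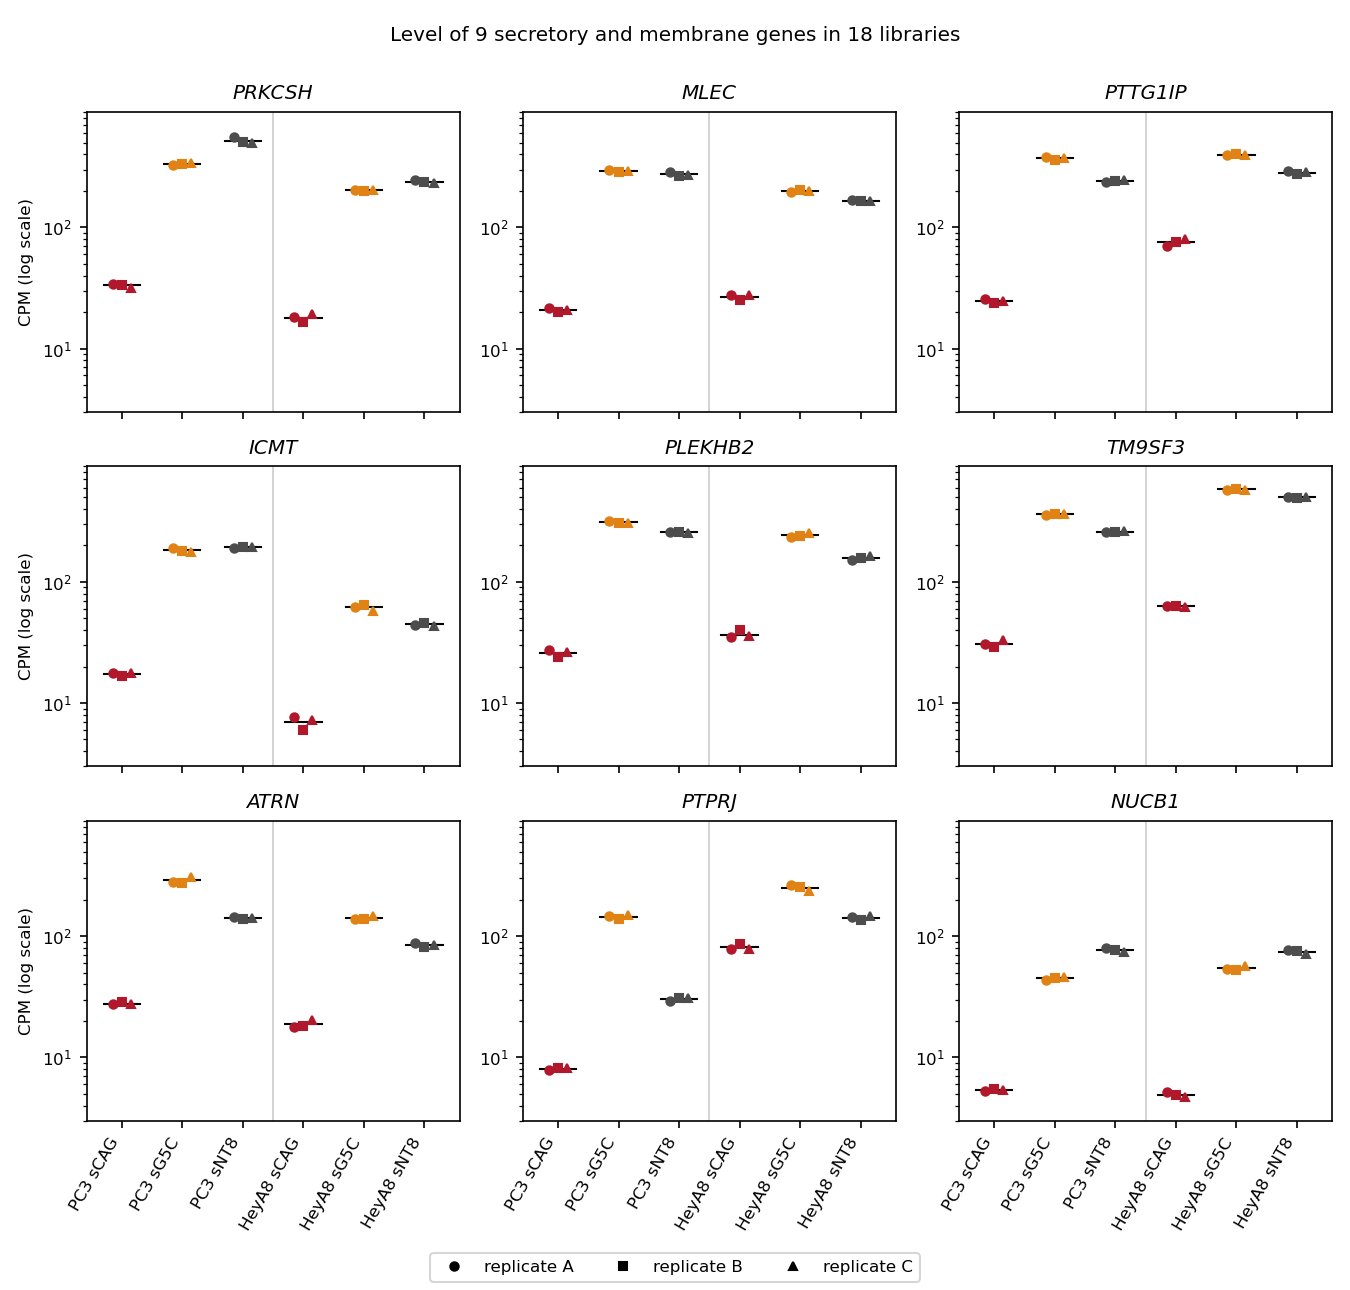
Level of each of the 9 genes in CPM, on a log axis, in the 18 libraries, with PC3 left of HeyA8 and sCAG, sG5C and sNT8 in order within each line; point shapes are replicates and bars group means (n = 3). The 3 sCAG libraries lie below the 3 sNT8 libraries for each gene in both lines.

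PRKCSH and MLEC act directly on N-glycans of new glycoproteins. PRKCSH (ENSG00000130175, chr19:11435288-11450968) encodes the non-catalytic subunit of glucosidase II, which cuts glucose from these chains. In HeyA8 cells PRKCSH stood at 18.1, 16.5 and 19.4 CPM after sCAG, against 246, 239 and 232 CPM after sNT8. Every sCAG library lay far below every sNT8 library, a 12.2-fold fall (log2 -3.61 ± 0.06 SE, adjusted p = 3.618e-25, limma). In PC3 cells, where it was chosen, PRKCSH stood at 34, 33.7 and 31.8 CPM after sCAG, against 553, 503 and 494 CPM after sNT8, a log2 fold change of -3.79 ± 0.05 SE. PRKCSH shares 1.24% of its exon bases with CCDC151 on the opposite strand, which did not exceed 1.52 CPM in any sCAG or sNT8 library. Such overlaps are given because no strand setting is known for the counting.

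MLEC (ENSG00000110917, chr12:120686869-120701864) encodes malectin, an ER lectin that binds glucose-bearing chains. It stood at 27.5, 25.1 and 27.8 CPM in HeyA8 sCAG libraries, against 169, 165 and 164 CPM in HeyA8 sNT8 libraries. The groups were apart, with a 5.69-fold fall (log2 -2.51 ± 0.05 SE, adjusted p = 1.283e-23, limma). The PC3 change was deeper, at -3.55 ± 0.05 SE, with 21.6, 20.1 and 20.7 CPM after sCAG, against 284, 268 and 272 CPM after sNT8. An antisense gene that covers 13.5% of the exon bases of MLEC, AC069234.2, had 0 reads in all 18 libraries.

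NUCB1 (ENSG00000104805, chr19:48900050-48923372) encodes a nucleobindin, a calcium-binding protein of the Golgi lumen. It had the largest HeyA8 fall of the 9, 13.8-fold (log2 -3.79 ± 0.07 SE, adjusted p = 1.365e-24, limma). The HeyA8 sCAG libraries held 5.18, 4.91 and 4.72 CPM and the HeyA8 sNT8 libraries 76.5, 75.1 and 71.9 CPM. The levels in PC3 were close to these, with 5.25, 5.53 and 5.37 CPM after sCAG and 80.3, 76.4 and 74.8 CPM after sNT8. The antisense gene NUCB1-AS1, which covers 5.44% of its exon bases, did not exceed 0.29 CPM in any group.

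TM9SF3 (ENSG00000077147, chr10:96518109-96587452) encodes a multi-pass membrane protein of the Golgi. TM9SF3 held 63.6, 63.8 and 61.6 CPM in HeyA8 sCAG libraries, against 504, 494 and 499 CPM in HeyA8 sNT8 libraries. Replicates were tight and the groups far apart, with a 7.28-fold fall (log2 -2.86 ± 0.04 SE, adjusted p = 8.036e-27, limma), the smallest p of the 9. In PC3 the levels were 30.8, 28.95 and 32.9 CPM after sCAG and 256, 259 and 265 CPM after sNT8. The PC3 log2 fold change, -2.90 ± 0.05 SE, lay beside the HeyA8 value although the PC3 sNT8 level was 0.522 times that of HeyA8.

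ICMT (ENSG00000116237, chr1:6221193-6235972) encodes the ER membrane enzyme that methylates the prenylated cysteine at the end of CAAX proteins such as RAS. ICMT stood at 7.71, 5.98 and 7.19 CPM in HeyA8 sCAG libraries, against 43.9, 46.1 and 43.4 CPM in HeyA8 sNT8 libraries. The HeyA8 fall was 5.89-fold, with a log2 fold change of -2.56 ± 0.08 SE (adjusted p = 4.426e-19, limma). PC3 cells held more ICMT, with 17.5, 16.7 and 17.8 CPM after sCAG and 191, 193 and 193 CPM after sNT8, and a log2 fold change of -3.29 ± 0.05 SE. Its partner on the opposite strand, RNF207, shares 2.18% of its exon bases and ran at 50.64 to 51.66 CPM in PC3 sCAG libraries and 39.03 to 40.34 CPM in PC3 sNT8 libraries, higher and not lower after sCAG. In HeyA8 the RNF207 level was 5.49 to 6.09 CPM after sCAG and 5.82 to 6.19 CPM after sNT8.

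PLEKHB2 (ENSG00000115762, chr2:131104847-131353709) encodes evectin, a protein of recycling endosomes that binds phosphatidylserine, and is the gene whose run lies in the 3′ UTR. PLEKHB2 stood at 34.7, 39.7 and 35.8 CPM in HeyA8 sCAG libraries, against 151, 157 and 162 CPM in HeyA8 sNT8 libraries, with no overlap. The HeyA8 fall was 3.92-fold (log2 -1.97 ± 0.05 SE, adjusted p = 2.032e-21, limma). In PC3 it was 27.6, 24.1 and 26.4 CPM after sCAG and 259, 256 and 254 CPM after sNT8, with a log2 fold change of -3.13 ± 0.05 SE. A pseudogene on the opposite strand, AC073869.2, shares 3.27% of its exon bases and did not exceed 0.58 CPM.

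The remaining 3 encode proteins that span the membrane. PTTG1IP (ENSG00000183255, chr21:44849585-44873903) encodes a glycoprotein that binds securin, the product of PTTG1. In HeyA8 it stood at 70.9, 76.1 and 80.1 CPM after sCAG, against 290.2, 274 and 285 CPM after sNT8, a 3.44-fold fall (log2 -1.78 ± 0.05 SE, adjusted p = 1.224e-20, limma). In PC3 it stood at 25.5, 23.6 and 24.6 CPM after sCAG, against 235, 244 and 248 CPM after sNT8, a log2 fold change of -3.13 ± 0.05 SE. The groups were apart in both lines, and the PC3 sCAG libraries lay below the HeyA8 sCAG libraries, although the PC3 sNT8 level was 0.856 times that of HeyA8.

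ATRN (ENSG00000088812, chr20:3471040-3651122) encodes attractin, a surface and secreted glycoprotein whose loss in mice changes coat pigment. ATRN was at 17.8, 18.02 and 20.5 CPM in HeyA8 sCAG libraries, against 88.3, 81.7 and 84.3 CPM in HeyA8 sNT8 libraries. Its HeyA8 fall of 4.15-fold (log2 -2.05 ± 0.06 SE, adjusted p = 1.077e-19, limma) stood beside a PC3 log2 fold change of -2.18 ± 0.05 SE. The PC3 levels were 27.5, 28.6 and 27.3 CPM after sCAG and 145, 140.0 and 142 CPM after sNT8.

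PTPRJ (ENSG00000149177, chr11:47980558-48170841) encodes a receptor-type tyrosine phosphatase that acts on growth factor receptors. It had the smallest HeyA8 fall of the 9, with 78.8, 85.7 and 78.0 CPM after sCAG, against 143, 137 and 146 CPM after sNT8. The groups did not overlap, and the fall was 1.62-fold (log2 -0.69 ± 0.05 SE, adjusted p = 2.357e-12, limma). By depth of fall it was 3735th of the 21980 genes tested. In PC3, where PTPRJ was lower to begin with, the levels were 7.87, 8.17 and 8.14 CPM after sCAG and 29.5, 30.9 and 31.2 CPM after sNT8, a log2 fold change of -1.75 ± 0.08 SE.

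In PC3 the sCAG libraries lay below the sNT8 libraries for 9 of 9 genes, as the choice of the genes required, where 23.1% of 23130 genes were called lower and 27.4% higher. The median log2 fold change of the 9 was -3.13, with PRKCSH 9th and PTPRJ 425th in order of fall, so the choice reached well past the deepest changes. In HeyA8 the order of fall ran from NUCB1, at 202nd of 21980 genes, to PTPRJ, at 3735th.

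The sCAG effect in PC3 minus that in HeyA8 was estimated in a fit over 18 libraries and is a description, because it contains the PC3 fold on which the genes were chosen. Its median over the 9 was -0.73 on the log2 scale. The sizes are from edgeR on the reads, and each SE is from a separate limma fit on log2 CPM of the same reads. The PC3 fall exceeded the HeyA8 fall by 2.52-fold for PTTG1IP (log2 difference -1.33 ± 0.06 SE), by 2.21-fold for PLEKHB2 (-1.14 ± 0.07), by 2.06-fold for PTPRJ (-1.04 ± 0.07), by 2.04-fold for MLEC (-1.03 ± 0.07) and by 1.66-fold for ICMT (-0.73 ± 0.10). For PRKCSH (-0.16 ± 0.08), ATRN (-0.11 ± 0.08), TM9SF3 (-0.02 ± 0.06) and NUCB1 (0.14 ± 0.09) the difference was under 1.2-fold.

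**Figure D3:**
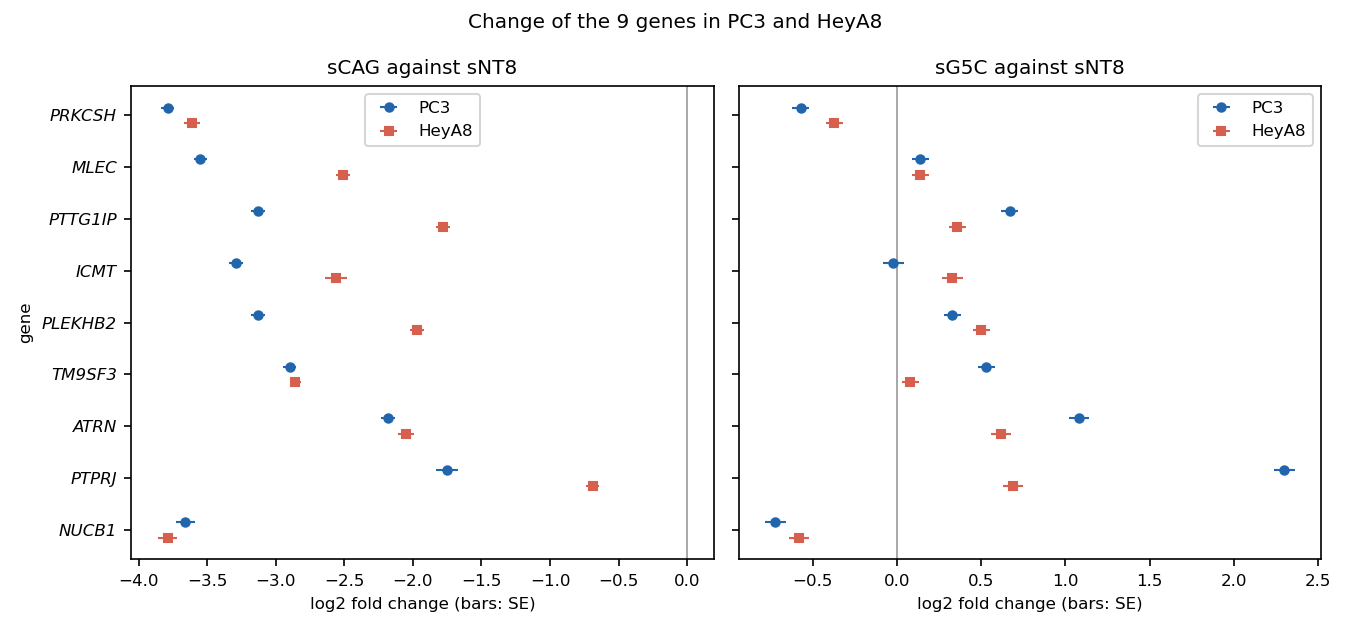
Log2 fold change of each gene after sCAG (left) and after sG5C (right), each against sNT8, in PC3 (circles) and HeyA8 (squares); bars are SE (n = 3 libraries a group). All sCAG values lie below 0, from -3.79 to -0.69, while sG5C values lie on both sides of 0.

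Per kilobase of exon, the 9 genes covered a wide range of levels. In HeyA8 sNT8 libraries PTTG1IP averaged 80.0 RPKM (CPM divided by the exon length in kilobases), TM9SF3 66.2, PRKCSH 46.3, MLEC 24.7, PLEKHB2 23.3, NUCB1 18.9, PTPRJ 14.8, ATRN 9.69 and ICMT 9.05 RPKM. After sCAG in HeyA8 the highest were PTTG1IP at 21.4 RPKM and PTPRJ at 8.40 RPKM, and the lowest NUCB1 at 1.25 RPKM. After sCAG in PC3 the highest were PTTG1IP at 6.95 RPKM and PRKCSH at 6.42 RPKM, and the lowest PTPRJ at 0.838 RPKM. The sNT8 level in PC3 over that in HeyA8, as a ratio of CPM, ran from 4.32 for ICMT and 2.16 for PRKCSH to 0.215 for PTPRJ, with NUCB1 at 1.04.

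Over all 6 groups, an sCAG group was the lowest for each of the 9. For MLEC, PTTG1IP, PLEKHB2, TM9SF3 and PTPRJ it was PC3 sCAG, the group on which the genes were chosen. It was HeyA8 sCAG for PRKCSH, ICMT, ATRN and NUCB1. PTPRJ in HeyA8 sCAG libraries, at a mean of 80.83 CPM, stood above its PC3 sNT8 mean of 30.52 CPM. When the groups were put in order of mean CPM, neighbouring groups overlapped in their libraries for ATRN (PC3 sNT8 with HeyA8 sG5C), PTPRJ (PC3 sG5C with HeyA8 sNT8) and NUCB1 (PC3 sNT8 with HeyA8 sNT8). How often neighbouring groups overlap over all genes was not counted, so this is not a trait of the 9.

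After sG5C the 9 genes did not move together. In HeyA8 cells 2 of the 9 were lower than after sNT8 and 6 higher at an adjusted p under 0.05, where 27.9% of 22354 genes were called lower and 24.6% higher. The median log2 fold change was 0.33, against 0.01 over all genes tested. These comparisons use the same HeyA8 sNT8 libraries as those of sCAG.

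The 2 that fell were NUCB1 and PRKCSH. NUCB1 held 53.2, 53.1 and 57.2 CPM after sG5C, against 76.5, 75.1 and 71.9 CPM after sNT8, a log2 fold change of -0.58 ± 0.06 SE (adjusted p = 2.682e-09, limma). PRKCSH held 202, 201 and 205 CPM after sG5C, against 246, 239 and 232 CPM after sNT8, a log2 fold change of -0.37 ± 0.05 SE (adjusted p = 9.798e-07, limma). Both groups were apart, and both falls were small beside those after sCAG.

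The largest rise was that of PTPRJ, with 267, 255 and 234 CPM after sG5C and 143, 137 and 146 CPM after sNT8, a 1.62-fold rise (log2 0.69 ± 0.06 SE, adjusted p = 6.151e-12, limma). ATRN rose 1.53-fold (0.62 ± 0.06 SE) and PLEKHB2 1.41-fold (0.50 ± 0.05 SE). PTTG1IP (0.36 ± 0.05 SE) and ICMT (0.33 ± 0.06 SE) rose less. MLEC was called higher at 1.10-fold (0.14 ± 0.05 SE, adjusted p = 0.02934, limma), a call lost when sNT8 B, sNT8 C, sG5C B or sG5C C was left out, with values of 0.11 to 0.14. TM9SF3 did not pass (0.08 ± 0.05 SE, adjusted p = 0.1885, limma), but did on library totals (0.21), with edgeR (0.11) or without sG5C A (0.11).

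In PC3 the sG5C values are a description, since these comparisons share the PC3 sNT8 libraries with the choice of the genes. PTPRJ stood at 147, 138 and 150.4 CPM after sG5C, against 29.5, 30.9 and 31.2 CPM after sNT8, 4.94-fold higher (log2 2.30 ± 0.06 SE). This is the widest change of any of the 9 after sG5C, and it put PTPRJ in PC3 at the level it had in HeyA8 sNT8 libraries. ATRN was 2.11-fold higher (1.08 ± 0.06 SE), with 282, 276 and 309 CPM after sG5C and 145, 140.0 and 142 CPM after sNT8. PTTG1IP (0.67 ± 0.05 SE), TM9SF3 (0.53 ± 0.05 SE), PLEKHB2 (0.33 ± 0.05 SE) and MLEC (0.14 ± 0.05 SE) were also above sNT8. ICMT was level (-0.02 ± 0.06 SE), and PRKCSH (-0.57 ± 0.05 SE) and NUCB1 (-0.72 ± 0.06 SE) were below, as they were in HeyA8. The median over the 9 was 0.33.

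Set directly against sG5C in HeyA8, sCAG lowered 9 of the 9 (edgeR on the reads of 9 libraries), where 33.4% of 23238 genes were called lower, with a median log2 fold change of -2.67. PTPRJ, whose fall against sNT8 was the shallowest, was 2.63-fold lower after sCAG than after sG5C (log2 -1.39 ± 0.05 SE, adjusted p = 1.348e-18, edgeR). The other 8 ranged from -2.15 for PTTG1IP to -3.25 for PRKCSH, with adjusted p from 2.223e-21 to 1.807e-26 in edgeR.

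Paralogs and partners of the 9, none of which has a CTG run of more than 3 units, had smaller fitted changes than the gene each is paired with, apart from PTTG1 in HeyA8. By best match to 18 bases of CTG repeat they are not all set apart from the 9, since TM9SF2 matched at 15 positions, as did ICMT and PLEKHB2. GANAB, the catalytic subunit of glucosidase II, averaged 452 CPM in HeyA8 sCAG libraries and 524 CPM in HeyA8 sNT8 libraries, and its log2 fold change was -0.09 ± 0.04 SE (adjusted p = 0.04479, limma). In PC3 GANAB averaged 428 CPM after sCAG and 391 CPM after sNT8 (log2 0.30 ± 0.04 SE, adjusted p = 8.011e-07, limma). The transcript of the catalytic subunit stayed within 1.3-fold of sNT8 in both lines, while that of its partner PRKCSH was more than 10-fold lower.

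The stretches below show the longest run of a catalytic partner and of a paralog from each of 2 families, beside those of PRKCSH, TM9SF3 and NUCB1 above, with the unbroken CTG repeat again in capitals.
GANAB, chr11:62631066-62631095, minus strand: ttgacgtcttcCTGCTGCTGgggccctcca
TM9SF2, chr13:99501645-99501674, plus strand: gccgcggctgtTGCTGCTGtcgctgctcct
NUCB2, chr11:17295329-17295358, plus strand: gtggaggaccatcCTGCTacagtattgctt

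TM9SF2 averaged 205 CPM after sCAG and 202 CPM after sNT8 in HeyA8 (log2 0.14 ± 0.04 SE, adjusted p = 0.007077, limma). TM9SF4 (0.02 ± 0.05 SE, adjusted p = 0.7351, limma) and the low TM9SF1 (0.58 ± 0.15 SE, adjusted p = 0.001488, limma) did not fall either. In PC3 the log2 fold changes were 0.14 for TM9SF2, 0.17 for TM9SF4 and 0.03 for TM9SF1. On library totals the small differences change side, with mean CPM lower after sCAG for TM9SF4 in both lines and for TM9SF2 and TM9SF1 in PC3.

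NUCB2 fell 2.20-fold in HeyA8 (log2 -1.14 ± 0.07 SE, adjusted p = 1.786e-13, limma), with 15.1 CPM after sCAG and 36.3 CPM after sNT8. In PC3 its log2 fold change was -0.17 ± 0.07 SE (adjusted p = 0.03219, limma). PTTG1 encodes securin, the binding partner of PTTG1IP and a regulator of sister chromatid separation. PTTG1 fell 14.8-fold in HeyA8, to 6.14 CPM after sCAG against 99.5 CPM after sNT8 (log2 -3.89 ± 0.07 SE, adjusted p = 1.332e-25, limma), and 2.48-fold in PC3. Its longest run is 2 CTG units. PLEKHB1 (1.19 ± 0.28 SE, adjusted p = 0.0005736, limma) and ATRNL1 (-0.56 ± 0.50 SE, adjusted p = 0.3454, limma) stayed under 2 CPM in HeyA8.

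**Figure D4:**
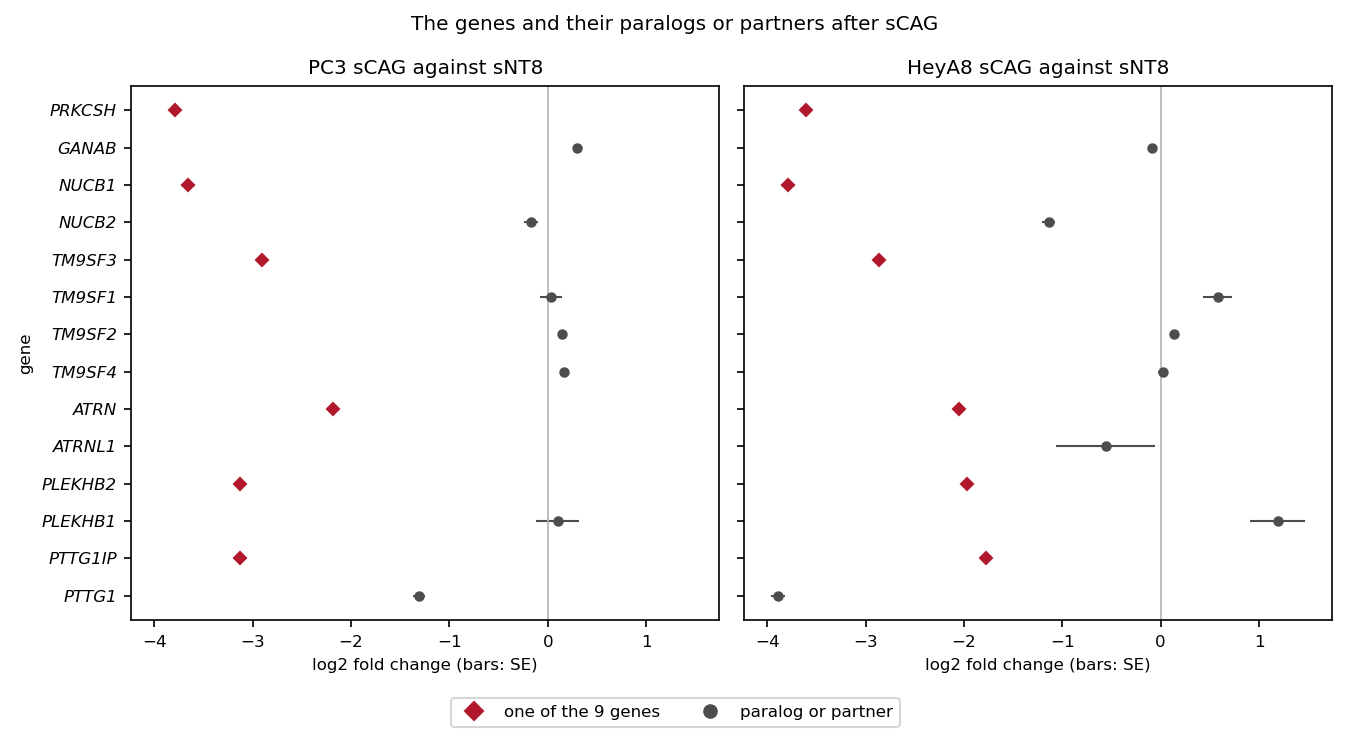
Log2 fold change after sCAG against sNT8 in PC3 (left) and HeyA8 (right) for 6 of the 9 genes (diamonds) and for their paralogs or partners (circles); bars are SE. In HeyA8 the circles farthest from 0 are PTTG1 at -3.89, PLEKHB1 at 1.19 and NUCB2 at -1.14, and in PC3 PTTG1 at -1.31; ATRNL1 was too low to be tested in PC3.

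In the pathways around the 9 genes, members fell and rose in every list. These counts stand beside the shares over all genes tested, 30% lower and 29.3% higher in HeyA8 and 23.1% lower and 27.4% higher in PC3. Of 15 genes of N-glycan trimming and ER lectins, 8 fell and 5 rose in HeyA8 after sCAG, with a median log2 fold change of -0.09. LMAN1 (-0.81), a cargo receptor, and ERLEC1 (-0.65) fell, and OS9 (0.63), a lectin of ER-associated degradation, rose. In PC3, 2 fell and 7 rose. Of 26 genes of the translocon and the oligosaccharyltransferase, which move proteins into the ER and attach the sugar chain, 11 fell and 10 rose in HeyA8, with a median of -0.08. SRPRA (-0.94) and SRPRB (-1.08), the subunits of the signal recognition particle receptor, and TUSC3 (-1.12), an oligosaccharyltransferase subunit, had the smallest p of that list. In PC3, 6 fell and 6 rose.

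Of 16 Golgi residents and cargo receptors, 6 fell and 7 rose in HeyA8, with NUCB2 and GOLM1 (-0.64) lower and GOLGB1 (0.55), a giant tether of Golgi membranes, higher. In PC3, 3 fell and 8 rose. Of 5 enzymes that process CAAX proteins before or beside ICMT, RCE1 (-0.53) and FNTA (-0.32) fell and 2 rose in HeyA8, among them the protease ZMPSTE24 (0.87). In PC3, 1 fell and 2 rose. Of 11 receptor-type tyrosine phosphatases tested, 3 fell and 7 rose in HeyA8, with PTPRB (1.79) and PTPRE (0.80) higher and PTPRF (-0.48) lower. The 3 that fell include PTPRD, whose HeyA8 values are near the floor. In PC3 2 fell and 7 rose. Library totals as the scale shift the all-gene median after sCAG by -0.12 in HeyA8 and -0.17 in PC3, so list medians this close to 0 have no firm sign.

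Split by sequence, the genes of these lists with a run of at least 4 CTG units were EDEM2, GOLIM4, LMAN2, PTPRD and TUSC3. In HeyA8 TUSC3 (-1.12), EDEM2 (-0.58), GOLIM4 (-0.57) and LMAN2 (-0.16) fell after sCAG. The median log2 fold change of the 5 was -0.58, but it counts PTPRD, whose fall is no result, and is not set against other genes. Of the 71 without such a run, 26 fell and 32 rose, with a median of 0.04. PTPRD, under 0.5 CPM in every HeyA8 library, was called lower too. Its levels were 0.34 to 0.43 CPM after sNT8 and 0 to 0.16 CPM after sCAG. It passed the filter on low values only through its sNT8 libraries, so its fall is no result. In PC3 the 5 behaved otherwise, with TUSC3 (-0.67) and GOLIM4 (-0.13) lower, EDEM2 (0.29) and LMAN2 (0.13) higher, and PTPRD (-0.08) not called. On library totals the direction of LMAN2 in PC3 changed side, with a mean of 116 CPM after sCAG and 119.5 CPM after sNT8. Genes with a run of 4 units thus changed by very different amounts.

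Over all protein-coding genes other than the 9, those with longer runs were lower after sCAG. In HeyA8, 70.1% of 77 genes with a run of at least 6 units were called lower, as were 61.4% of 70 genes with 5 units, 52.8% of 288 genes with 4 units, 39.6% of 2084 genes with 3 units and 37.3% of 10873 genes with 2 units or fewer. The median log2 fold changes of these classes were -1.21, -0.80, -0.26, -0.04 and -0.01. In PC3 the shares were 75.9%, 63.6%, 50%, 32.7% and 24.5%, and the medians -1.46, -0.74, -0.28, -0.01 and 0.08. In HeyA8, the 4-unit genes PRKCSH (-3.61), NUCB1 (-3.79), ICMT (-2.56) and PLEKHB2 (-1.97) lay below the median of their class. Of the 6-unit genes, MLEC (-2.51), PTTG1IP (-1.78), TM9SF3 (-2.86) and ATRN (-2.05) lay below that of theirs, and PTPRJ (-0.69) above it. The place of the 9 within their classes in PC3 follows from how they were selected. How far that selection also bears on their place in HeyA8 was not tested.

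**Figure D5:**
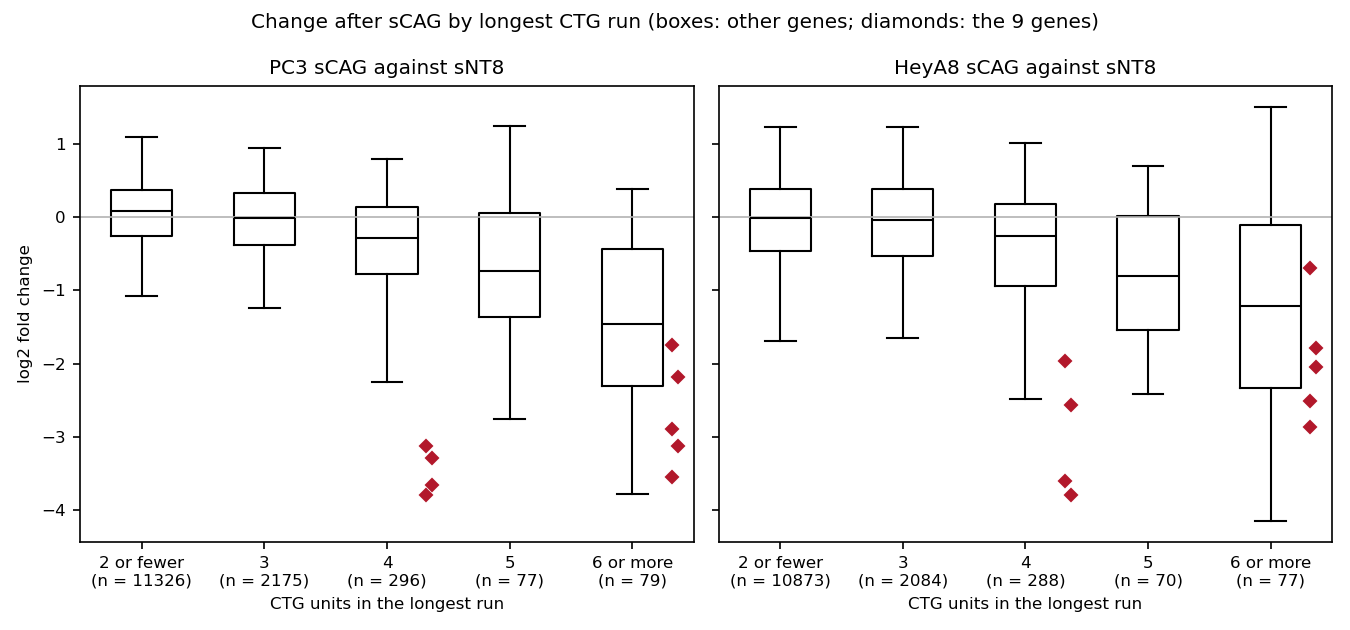
Log2 fold change after sCAG against sNT8 by the longest CTG run, in PC3 (left) and HeyA8 (right); boxes give the median and quartiles of protein-coding genes other than the 9, whiskers percentiles 5 and 95, and diamonds the 9 genes. The class medians fall with the number of units, to -1.46 in PC3 and -1.21 in HeyA8 for 6 units or more.

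Place in the transcript also went with depth. Of the other genes with at least 4 units, those whose run lies in the first 50 codons had a median of -0.92 in HeyA8 (n = 146), and 24.0% of them fell at least 4-fold. The median was -0.38 for runs in later codons (n = 170), -0.20 in the 5′ UTR (n = 48) and -0.14 in the 3′ UTR (n = 71). In PC3 these medians were -0.86, -0.35, -0.05 and -0.18. Place was not crossed with run length, so whether place matters apart from length was not tested. The split at 50 codons was chosen after the sequences of the followed genes had been read. PLEKHB2, at -1.97 in HeyA8, was below the HeyA8 median of genes with a run in the 3′ UTR. After sG5C, genes with a run of at least 6 units had medians of -0.14 in HeyA8 and 0.08 in PC3. Of them 43.8% were called lower in HeyA8, against 35.5% of genes with 2 units or fewer, and 23.8% in PC3, against 34.5%.

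The genes whose levels over the 18 libraries were most like the mean of the 9, each scaled to its own mean and SD on the log2 CPM scale, were AGPAT2 (Pearson r = 0.991), CRIPT (0.988), MESD (0.985), MAPK3 (0.983) and ARSB (0.98), out of 11753 candidates. The 18 points are 6 groups of 3, so the likeness is mostly one of group means. After sCAG, the log2 fold change of AGPAT2, an acyltransferase of the ER, was -2.13 in PC3 and -1.59 in HeyA8, and that of CRIPT -2.26 in PC3 and -1.52 in HeyA8. For MESD, an ER chaperone of lipoprotein receptors, it was -2.66 in PC3 and -2.36 in HeyA8. For MAPK3, a kinase of the ERK pathway, it was -2.64 in PC3 and -2.46 in HeyA8, and for ARSB, a lysosomal sulfatase, -3.19 in PC3 and -3.11 in HeyA8. All 5 have a run of 4 to 6 CTG units, printed here with the unbroken repeat in capitals. They were named by likeness over libraries that include the PC3 values on which the 9 were selected, so their runs are no separate support.
AGPAT2, chr9:136687299-136687328, minus strand: gctgctgtTGCTGCTGCTGCTGgtgcagct
CRIPT, chr2:46617229-46617258, plus strand: ttcagcCTGCTGCTGCTGCTGCTGttgcgg
MESD, chr15:80989715-80989744, minus strand: ctctgacCTGCTGCTGCTGCTGCTactgct
MAPK3, chr16:30114471-30114500, minus strand: aatctcccGCTGCTGCTGCTGCgcccttac
ARSB, chr5:78985152-78985181, minus strand: tcctcccGCTGCTGCTGCTGCTGttgttgg

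Of these, the runs of AGPAT2, MESD and ARSB lie in coding sequence, that of CRIPT in the 5′ UTR and that of MAPK3 in the 3′ UTR. Among the 9 genes themselves, pairwise r over the 18 libraries reached 0.99 for MLEC with PLEKHB2 and was lowest, at 0.18, for ICMT with PTPRJ, whose levels differ between the lines in opposite directions.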

How the data were processed

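RNA from 18 libraries was analysed. Per the submitters' processing notes, TopHat, Bowtie2, HTSeq and DESeq2 were used with hg38; the sources used here give no versions and no strand setting. The authors deposited 4 tables of 58395 genes. Per the file headers, each holds a normalized signal for 6 libraries (counts divided by size factors) and the authors' own log2 fold change, its error, a Wald score and a p-value, none of which were used here. All values of a library (100%) were whole multiples of 1 step within 1e-06, which gave back whole reads. CPM and RPKM were computed from these reads, RPKM over merged exons.

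The design named edgeR for counts. As the tables are normalized, the main test was limma 3.58.1 (trend and robust options, log2 values after adding a pseudocount of 1, 6 libraries a fit, filterByExpr with a count minimum of 10, R 4.3.3). Comparisons across tables used edgeR 4.0.16 on the reads with TMM scaling. The threshold was a Benjamini-Hochberg adjusted p of 0.05 over all genes tested. The scripts were tested on simulated data. Alternatives were TMM, library totals, other pseudocounts (0.1 and 5), no filter, a count minimum of 50, edgeR, DESeq2 1.42.0, a replicate block and leaving out each library.

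The 9 genes, the lists and the CTG search were chosen with earlier results of these data known, so they give no independent support to what those results showed. Named genes are the 9, the relatives, up to 3 genes of each list with the smallest p in HeyA8 after sCAG, and the 5 most alike. The 5 listed genes with a run of 4 units were named after their values were seen. CTG units were counted on the sense strand of GENCODE 29 coding transcripts, which 19624 protein-coding genes of the tables have. GENCODE 29 as a whole holds 58275 of the identifiers.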

Additional observations from a re-analysis of the deposited data

How the results depend on the processing

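After sCAG in HeyA8, direction and call of each of the 9 genes held under all 15 alternatives, the replicate block included (9 of 9 lower), and against sG5C under all 10. Same-letter deviations correlated weakly, at -0.02 to 0.17, above 0.1 in 3 of 18 pairs, all of them in PC3. Unlike letters were not compared, so pairing by letter was not tested. The block ended only the MLEC call after sG5C in HeyA8 (0.14). Library totals moved the PC3 medians to -3.30 after sCAG and 0.27 after sG5C. Leaving out 1 library gave a median difference between the lines of -0.86 (without HeyA8 sCAG B) to -0.68. The sign changed for ICMT after sG5C in PC3, -0.06 to 0.03 (without PC3 sG5C C), and for TM9SF3 between the lines, -0.07 to 0.01 (without PC3 sCAG B). The causes were not tested. Of the other genes with CTG runs, 54 of 77 were lower in HeyA8 at 6 units or more, 97 of 147 at 5 or more and 249 of 435 at 4 or more, sets that are larger by construction. It was 52 of 68 on the longest coding transcript alone and 55 of 77 on library totals. Depth limited the 9 genes little: the lowest count was 164 reads, for NUCB1 in HeyA8 sCAG C. The strand setting and which transcripts carried the reads are unknown, and the replicates may not be separate cultures.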
